A study of Mus musculus with 12 samples.

Results

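Hadha, Hadhb, Hadh, Echs1, Eci1, Eci2, Decr1 and Acaa2 encode the enzymes that act on a fatty acyl chain inside the mitochondrion after the first dehydrogenation of beta-oxidation. These 8 genes were taken by name from a count table of 47643 genes, and all 8 were expressed highly enough to be tested together with 17602 genes in all. The table came from bulk RNA-seq of mouse intestine, 12 libraries in 4 groups of 3. All mice were male C57BL/6, 7 to 8 weeks old, and received chow or a high-fat diet (HFD, labelled 60% HFD) during 10 days. The control genotype, Pparafl/fl, carries floxed alleles of Ppara, the gene of the fatty acid-activated nuclear receptor PPARA, and is called WT here. The other genotype, PparaΔIE, named in the usual notation for loss in the intestinal epithelium, is called KO here. The groups were thus WT chow, KO chow, WT HFD and KO HFD, and the question was how diet, genotype and their combination relate to gene expression. No intestinal segment, Cre driver or deleted exon is given in the sources used here, and whether each library is a mouse of its own is not stated in the labels. The p-values therefore measure only how these samples vary within a group, and that variation may be technical.

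Mitochondrial beta-oxidation shortens fatty acyl-CoA by repeated cycles of dehydrogenation, hydration, a second dehydrogenation and thiolysis. For long chains the last 3 of these steps are carried out by the trifunctional protein of the inner membrane, in which the alpha subunit (Hadha) holds the hydratase and hydroxyacyl-CoA dehydrogenase activities and the beta subunit (Hadhb) the thiolase. For shorter chains, separate matrix enzymes take over, namely the hydratase Echs1, the hydroxyacyl-CoA dehydrogenase Hadh and the thiolase Acaa2. Unsaturated chains also need the enoyl-CoA isomerases Eci1 and Eci2 and the dienoyl-CoA reductase Decr1, which move or remove double bonds. Absorptive cells of the intestine take up large amounts of dietary fat, and many genes of the pathway are known PPARA targets.

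Hadha and Hadhb lie head to head on mouse chromosome 5. In build mm10 with the GENCODE vM21 annotation, Hadha (ENSMUSG00000025745.11) spans chr5:30118304-30155162 on the minus strand and Hadhb (ENSMUSG00000059447.13) spans chr5:30155248-30184593 on the plus strand, with 85 bp between their annotated starts. The intergenic stretch between the 2 starts is printed first below, because both subunit genes begin at its ends. The stretches before the starts of Echs1, the member that fell on HFD in both genotypes, and of Eci2, the member that was lower in KO over both diets, are printed for comparison. They come from RefSeq promoter windows on GRCm38.p6, cut so that they hold no annotated exon, and the RefSeq start used for Eci2 lies inside the longer gene span of GENCODE given further on. They are written 5′ to 3′, the first on the plus strand and the others on the minus strand. Capitals mark GGGCGG or its complement CCGCCC (the core of the GC box bound by SP factors), CCAAT (the core of the site bound by NF-Y) and AGGTCA (the hexamer that nuclear receptors bind).
Hadha to Hadhb, chr5:30155163-30155247: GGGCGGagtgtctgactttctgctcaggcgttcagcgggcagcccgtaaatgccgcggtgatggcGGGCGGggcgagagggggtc
Echs1, chr7:140116477-140116671: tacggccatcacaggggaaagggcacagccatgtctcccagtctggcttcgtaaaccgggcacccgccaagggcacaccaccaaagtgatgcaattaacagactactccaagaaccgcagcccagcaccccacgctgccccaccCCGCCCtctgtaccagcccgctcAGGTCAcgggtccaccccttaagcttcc
Eci2, chr13:34994282-34994394: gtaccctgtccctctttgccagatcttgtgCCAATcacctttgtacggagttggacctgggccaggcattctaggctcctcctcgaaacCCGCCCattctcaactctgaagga

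RefSeq windows from 250 bases before to 50 after the start were given for 6 of the 8 genes, all but Decr1 and Acaa2, and the windows of Hadha and Hadhb overlap by 228 bp. The 3 motifs were searched on both strands. GGGCGG was found in all 6 windows, against 35.7% of the 32851 windows of all genes. CCAAT was found in the windows of Hadh and Eci2, against 37.4% of all windows, and AGGTCA only in that of Echs1, against 16.3%. The 6 windows held 14 to 24 CpG dinucleotides each, with 20 in that of Hadha and 24 in that of Hadhb, and the median over all windows was 7. These matches describe the letters of the reference only, and no binding was measured.

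The other members lie apart from one another. Hadh (ENSMUSG00000027984.8) is at chr3:131233419-131272101 on the minus strand, Echs1 (ENSMUSG00000025465.12) at chr7:140105710-140116476 on the minus strand, Eci1 (ENSMUSG00000024132.5) at chr17:24426641-24439348 on the plus strand, Eci2 (ENSMUSG00000021417.14) at chr13:34977748-35027096 on the minus strand, Decr1 (ENSMUSG00000028223.8) at chr4:15917240-15945507 on the minus strand and Acaa2 (ENSMUSG00000036880.9) at chr18:74779197-74806208 on the plus strand. Values are given as CPM, counts scaled by library size, for the whole annotated gene. Some loci limit what a count stands for. Echs1 overlaps the opposite-strand gene Paox (4.33 to 7.19 CPM as group means), whose reads may be shared with it. Eci2 has the close relative Eci3 (17.0 to 25.4 CPM as group means), and its estimated count was not whole in 12 of 12 libraries, as RSEM divides reads that fit several genes. Hadhb was not whole in 10 libraries, Eci1 in 1 and the other 5 members in none.

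Ppara itself measured 19.2, 18.1 and 22.0 CPM in WT chow, 8.42, 15.6 and 13.0 in KO chow, 39.3, 36.6 and 33.7 in WT HFD and 11.4, 11.1 and 17.3 in KO HFD. It was lower in every KO library than in every WT library of the same diet. KO differed from WT by −1.46 in log2 on HFD (adjusted p = 0.031) and by −0.68 on chow (adjusted p = 0.25), and Ppara rose on HFD in WT (0.89, adjusted p = 0.019). Library totals ran from 33621040 to 53959405 expected counts. Markers matched the tissue label, with summed epithelial markers (6 genes) at 10788 to 15445 CPM and summed distal ileum markers (5 genes) at 5086 to 6971 CPM in the 12 libraries. Some libraries stood apart. The WT chow libraries were unusually alike, with an SD of log2 differences of 0.112 to 0.158 over 8838 genes, against 0.181 to 0.356 within the other groups. WT chow 1 lay between WT chow 2 and WT chow 3 for 94.0% of the 200 genes in which these differed most, and KO chow 3 lay between its 2 partners for 99.0% of theirs, while the other libraries did so for 8.5% to 81.5%. Counts of calls are therefore also given without these 2.

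Per kilobase of the principal transcript, Hadh had the highest level of the 8 genes in every group, 154 ± 2.24 CPM per kb in WT chow and 193 ± 17.4 in WT HFD (SD, n = 3 each). On the same scale in WT chow, Hadhb measured 58.8 ± 0.458 CPM per kb, Hadha 47.3 ± 1.13 and Echs1 46.0 ± 0.64. Decr1 (28.0 ± 0.45 CPM per kb), Acaa2 (27.1 ± 2.4), Eci2 (18.8 ± 0.835) and Eci1 (17.2 ± 0.334) were lower. The rank of Hadh was the same with the length of all exons, but the ranks below it changed with that choice. In WT HFD Acaa2 stood at 55.2 ± 11.0 CPM per kb, above Echs1 at 35.0 ± 1.72.

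On HFD, WT intestine held more mRNA of both subunits of the trifunctional protein and of most later enzymes, with Acaa2 about doubled, while the hydratase Echs1 was lower and Decr1 did not pass the test. Hadha (alpha subunit) measured 187, 188 and 195 CPM in WT chow and 314, 328 and 251 CPM in WT HFD. Every HFD library was above every chow library, and the log2 fold change was 0.65 (SE 0.12, adjusted p = 0.0047). Hadhb (beta subunit) measured 119, 121 and 121 CPM in WT chow and 169, 184 and 137 CPM in WT HFD. These groups did not overlap either, and the log2 fold change was 0.44 (SE 0.13, adjusted p = 0.041). In bulk tissue, fewer cells of a type and less RNA per cell cannot be told apart.

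Acaa2, the matrix thiolase that releases acetyl-CoA from shorter chains, had the largest change of the 8 genes. It measured 43.2, 36.8 and 43.0 CPM in WT chow and 98.5, 86.7 and 65.7 CPM in WT HFD. The lowest HFD library was well above the highest chow library, and the change was 2.04-fold (log2 1.03, SE 0.21, adjusted p = 0.011). Hadh, the matrix hydroxyacyl-CoA dehydrogenase, measured 275, 271 and 279 CPM in WT chow and 359, 367 and 310 CPM in WT HFD. It rose 1.26-fold (log2 0.33, SE 0.09, adjusted p = 0.03), with no overlap between the groups.

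Echs1, the matrix hydratase whose product Hadh uses, moved the other way. It measured 70.8, 72.7 and 71.2 CPM in WT chow and 56.6, 55.6 and 51.5 CPM in WT HFD, so that all HFD libraries were below all chow libraries. The log2 fold change was −0.39 (SE 0.1, adjusted p = 0.018). The overlapping gene Paox, at 4.92 ± 0.527 CPM in WT HFD (SD, n = 3), was lower as well (−0.55, adjusted p = 0.021), and the part of shared reads in the Echs1 result was not tested.

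Both isomerases rose in WT on HFD. Eci2 measured 34.0, 31.2 and 33.4 CPM in WT chow and 48.3, 47.9 and 38.9 CPM in WT HFD (log2 fold change 0.45, SE 0.1, adjusted p = 0.011). Eci1 measured 19.9, 19.5 and 19.2 CPM in WT chow and 26.2, 25.1 and 21.9 CPM in WT HFD (0.32, SE 0.09, adjusted p = 0.031). In each of these genes WT HFD 3 was the lowest HFD library and still lay above the chow group. Decr1, the reductase for dienoyl-CoA, measured 83.2, 81.3 and 83.9 CPM in WT chow and 81.9, 75.9 and 68.7 CPM in WT HFD. The Decr1 groups overlapped, and its log2 fold change was −0.13 (95% confidence interval −0.32 to 0.06, adjusted p = 0.35).

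**Figure D1:**
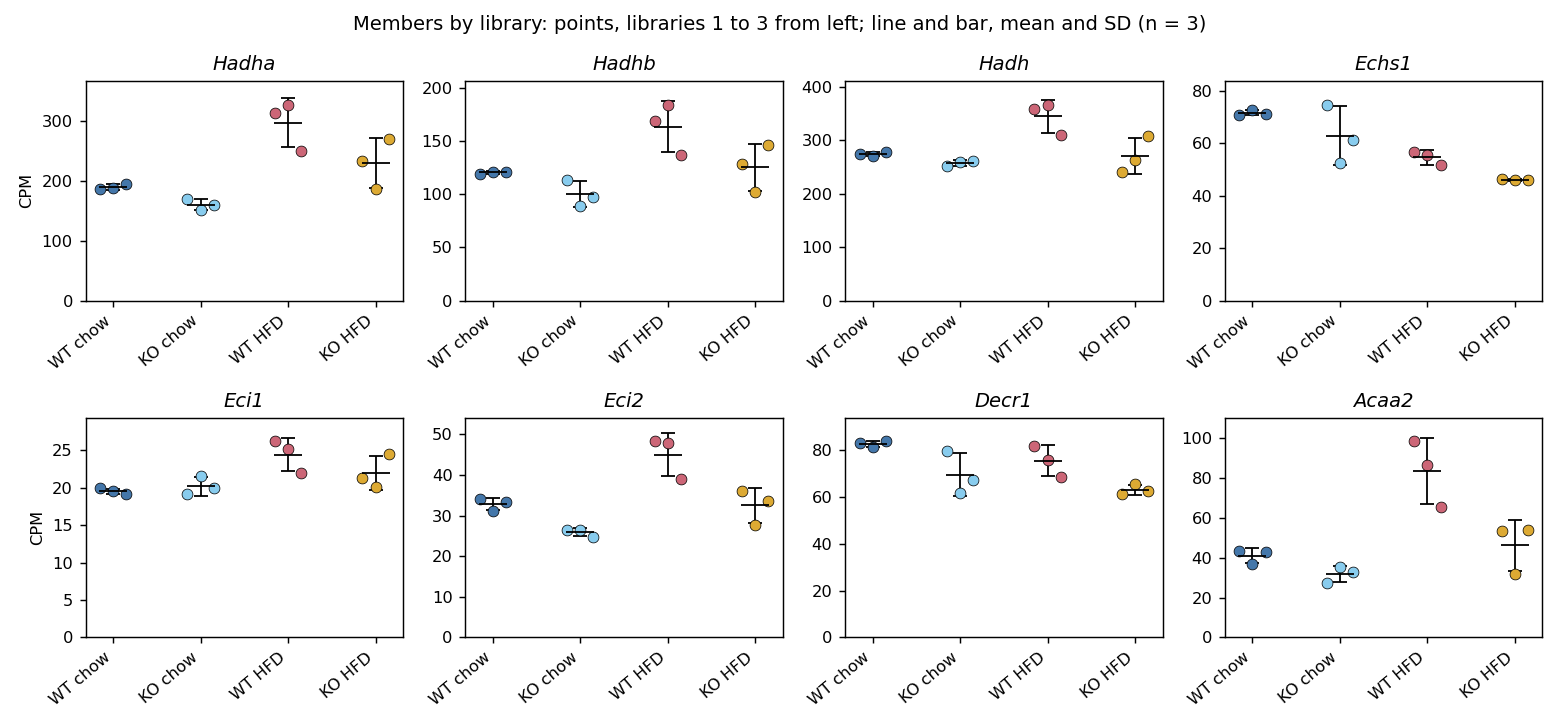
Each panel plots 1 of the 8 genes, with CPM on the vertical axis and the 4 groups on the horizontal axis. Points are libraries and the line and bar give the mean and SD (n = 3). WT HFD is highest for 6 genes, while Echs1 and Decr1 are highest in WT chow.

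Of the 8 genes, 6 rose, 1 fell and 1 did not pass, and 13.4% of all tested genes were called (6.8% higher and 6.57% lower). The groups did not overlap for 7 members, against 37.9% of all genes. The median log2 fold change of the 8 was 0.39, and that of all tested genes was 0.01. The count of calls moved with the libraries, for the members and for all genes. Without both WT chow 1 and KO chow 3 it was 0, with 2.55% of all genes called (smallest adjusted p = 0.055, Hadha at 0.63 and Acaa2 at 1.06). With 1 library left out it was 3 without WT chow 1 (4.98% of all genes), 2 without WT chow 2 (6.38%), 3 without WT chow 3 (4.98%), 4 without KO chow 3 (10.2%), 4 without WT HFD 1 (14.1%), 3 without WT HFD 2 (7.24%) and 6 or 7 without any other. The members' median stayed between 0.31 and 0.48 in these fits. Markers of proximal small intestine (5 genes, none at 0) summed to 120 to 151 CPM in WT chow and 184 to 331 CPM in WT HFD, with 1 of 4 tested called higher. The sum rose chiefly through Lct (means 2.33 and 164 CPM), while Slc40a1 was lower on HFD (128 and 82.6 CPM). With the score of these markers in the fit, 0 members and 0.403% of all genes were called (Hadha 0.72, Acaa2 0.88, Echs1 −0.17). The score did not overlap between WT chow (−0.797 to −0.722) and WT HFD (0.044 to 0.76). That fit can therefore hardly separate the score from diet in WT, and nothing is concluded from its loss of calls. Enterocyte markers (8 genes) summed to 17542 to 17643 CPM in WT chow and 23172 to 26278 CPM in WT HFD. The largest rises among them were those of Fabp2 (means 2121 and 5724 CPM) and Apoa4 (189 and 1917), while Slc5a1 fell (2035 and 1885). Epithelial markers (6 genes) went the other way, with sums of 15062 to 15395 CPM in WT chow and 11658 to 13457 CPM in WT HFD. All 6 had negative fold changes and 1 was called lower. The share of counts from the mitochondrial genome was 3.11% to 3.38% in WT chow and 4.16% to 4.91% in WT HFD. The part of the enterocyte and epithelial markers and of the mitochondrial share in the results was not tested.

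On HFD the mRNA of the alpha subunit was higher relative to that of the beta subunit. The log2 ratio of the Hadha count to the Hadhb count, which needs no scaling between libraries, was 0.64, 0.64 and 0.69 in WT chow and 0.60, 0.78 and 0.71 in KO chow. It was 0.89, 0.83 and 0.87 in WT HFD and 0.86, 0.88 and 0.89 in KO HFD. All 6 HFD libraries were above all 6 chow libraries. Ratios of other gene pairs were not examined, and 37.9% of single genes in WT and 25.8% in KO had diet groups that did not overlap. The mean HFD minus chow difference was 0.19 (0.21 in WT and 0.18 in KO), and an exact two-sided permutation test of diet within genotype gave p = 0.005, the smallest that its 400 arrangements allow. Without WT chow 1 and KO chow 3 the difference was 0.20 with an exact p = 0.01 over 100 arrangements. Both subunits are needed in the enzyme complex, and the counts measure mRNA only.

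**Figure D2:**
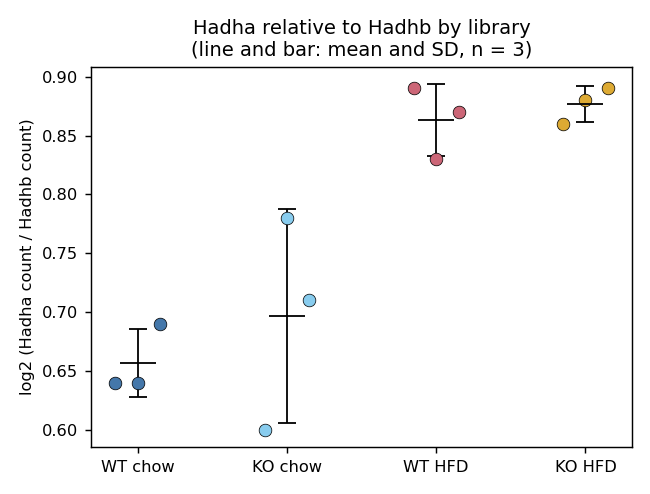
The vertical axis is log2 of the Hadha count over the Hadhb count, and the horizontal axis gives the 4 groups, with points for libraries and the mean and SD (n = 3). Chow libraries lie from 0.60 to 0.78 and HFD libraries from 0.83 to 0.89.

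In KO intestine the same diet contrast called Hadha higher and Echs1 lower, and the other 6 genes did not pass. Hadha measured 170, 152 and 160 CPM in KO chow and 233, 187 and 271 CPM in KO HFD. The groups did not overlap, and Hadha rose 1.43-fold (log2 0.52, SE 0.12, adjusted p = 0.02). Echs1 measured 74.7, 52.6 and 61.2 CPM in KO chow and 46.2, 45.8 and 45.9 CPM in KO HFD. The 3 KO HFD libraries were nearly equal and below each chow library (log2 fold change −0.45, SE 0.1, adjusted p = 0.014).

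Hadhb measured 113, 88.8 and 97.6 CPM in KO chow and 128, 102 and 146 CPM in KO HFD, and its groups overlapped (log2 fold change 0.33, SE 0.13, adjusted p = 0.14). Acaa2 measured 27.3, 35.4 and 32.7 CPM in KO chow and 53.6, 31.6 and 53.8 CPM in KO HFD. KO HFD 2 thus lay inside the KO chow range, while the other 2 HFD libraries were above it (0.54, SE 0.21, adjusted p = 0.13). Eci2 measured 26.5, 26.5 and 24.7 CPM in KO chow and 36.1, 27.7 and 33.7 CPM in KO HFD. Its groups did not overlap but the difference missed the threshold (0.33, SE 0.1, adjusted p = 0.063). Hadh (0.07), Eci1 (0.12) and Decr1 (−0.14) had the smallest log2 fold changes, with adjusted p of 0.68, 0.44 and 0.35.

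Of all tested genes 8.2% were called in this contrast (3.44% higher and 4.76% lower), against 2 of the 8 members, and 25.8% had groups that did not overlap, against 3 members. The median log2 fold change of the members was 0.22. The call count was 0 without both WT chow 1 and KO chow 3 (1.03% of all genes called), 0 with the proximal score in the fit (2.99%), 0 with only the KO libraries fitted (1.99%) and 4 without KO HFD 2 (4.1%). It was 1 without KO chow 1 (3.92%), KO chow 3 (2.5%), KO HFD 1 (4.77%) or KO HFD 3 (6.12%). Echs1 was called in all 12 fits that left out 1 library and Hadha in 8. Beside these results, 2 of 9 smooth muscle markers (Synm and Myh11) were called higher in KO HFD, with sums of 50.8 to 65.6 CPM in KO chow and 92.7 to 119 CPM in KO HFD. Of 8 enterocyte markers 2 were called higher, Fabp2 and Apoa4. Of 6 epithelial markers 1 was called lower, and all 6 had negative fold changes. Of 4 pancreatic acinar markers, which summed to 2.34 to 3.2 CPM in KO chow and 1.36 to 1.8 CPM in KO HFD, Cela1 was the single one tested and was called lower (−0.83), and Pnlip was at 0 in both groups. The mitochondrial share of counts was 3.43% to 4.39% in KO chow and 4.69% to 5.41% in KO HFD. The part of these in the results was not tested.

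Calls in WT and their absence in KO do not show that the diet response differed between genotypes, and the difference itself was tested. None of the 8 genes had an interaction of genotype and diet, with 0.00568% of all genes called by edgeR, 0 members at an unadjusted p under 0.05 and 0 members called by DESeq2 (0.324% of all genes). Without WT chow 1 and KO chow 3 there were again 0 calls. The largest difference was that of Acaa2, whose response was lower in KO by −0.48 on the log2 scale (95% confidence interval −1.13 to 0.16, adjusted p = 0.86). For Hadh it was −0.26 (adjusted p = 0.81), and for Hadha and Hadhb it was −0.13 and −0.11. Decr1 and Echs1 were nearest to 0, at −0.01 and −0.06. The intervals leave room for differences of the size seen, so no likeness of the responses follows.

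On HFD all 8 genes had lower fitted levels in KO than in WT, and edgeR called 0 of them, with 0.29% of all genes called. At an unadjusted p under 0.05 there were 7 members, against 2289 of the 17602 genes, and the DESeq2 Wald test called 3, Hadh, Eci2 and Acaa2, with 1.64% of all genes called. Acaa2 had the largest difference, with 98.5, 86.7 and 65.7 CPM in WT HFD against 53.6, 31.6 and 53.8 CPM in KO HFD. The groups did not overlap, and the log2 fold change was −0.85 (SE 0.21, edgeR adjusted p = 0.14, DESeq2 adjusted p = 0.001). Eci2 measured 48.3, 47.9 and 38.9 CPM in WT HFD against 36.1, 27.7 and 33.7 CPM in KO HFD (−0.47, SE 0.1, edgeR adjusted p = 0.081, DESeq2 adjusted p = 0.0047). Hadh measured 359, 367 and 310 CPM against 241, 263 and 308 CPM, with its lowest WT value next to its highest KO value (−0.35, edgeR adjusted p = 0.15, DESeq2 adjusted p = 0.022).

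Of the other members, Hadha (−0.37) and Hadhb (−0.38) overlapped between genotypes, because KO HFD 3 reached 271 and 146 CPM while WT HFD 3 was at 251 and 137 CPM. Echs1 (−0.25) and Decr1 (−0.26) did not overlap, and Eci1 (−0.15) did. In all, 5 members had groups that did not overlap, each lower in KO, against 8.7% of all genes lower and 18% in either direction. The median of the 8 was −0.36, and that of all genes was −0.0. A uniformly negative direction was not particular to the members, though 8818 of all 17602 genes were negative. In lists described further on, 9 of 9 peroxisomal, 16 of 16 citric acid cycle and 17 of 20 other mitochondrial beta-oxidation genes were negative. So were 6 of 6 epithelial markers and 8 of 13 branched-chain and short-chain genes. Smooth muscle markers (9 genes, none at 0) summed to 36.3 to 72.5 CPM in WT HFD and 92.7 to 119 CPM in KO HFD, with 1 of 9 called higher. With their score in the fit 2 members were called, Eci2 (−0.71) and Decr1 (−0.5), the median of the 8 was −0.53, and 9.28% of all genes were called. The score did not overlap between WT HFD (−0.817 to 0.134) and KO HFD (0.363 to 0.734). That fit can therefore hardly separate the score from genotype on HFD, and nothing is concluded from its larger values. Of 8 enterocyte markers 1 was called lower in KO HFD, Treh (−0.58, adjusted p = 0.031), and their sums were 23172 to 26278 CPM in WT HFD and 18310 to 24249 CPM in KO HFD. The share of counts from protein-coding genes was 80.5% to 81.9% in WT HFD and 77.2% to 79.4% in KO HFD, and the abundant transcript Gm26917 was called higher in KO HFD (0.84, adjusted p = 0.031). The part of the enterocyte markers, of that share and of Gm26917 in the results was not tested. Leaving out WT HFD 3 called Eci2 (0.573% of all genes), leaving out KO HFD 3 called Hadh (0.961%), and without WT chow 1 and KO chow 3 the count was 0.

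On chow the genotype differences were smaller and edgeR called 0 members, with 0.125% of all genes called, 2 members at an unadjusted p under 0.05 (2293 of all 17602 genes) and 0 called by DESeq2 (1.06% of all genes). Eci2 measured 34.0, 31.2 and 33.4 CPM in WT chow against 26.5, 26.5 and 24.7 CPM in KO chow, without overlap (log2 fold change −0.34, adjusted p = 0.21). Acaa2 had a difference of −0.37, Hadhb of −0.27, Decr1 of −0.25, Hadha of −0.24, Echs1 of −0.19, Hadh of −0.09 and Eci1 of 0.05. For 6 members the KO libraries were all below the WT libraries, against 12.1% of all genes, and Echs1 and Eci1 overlapped. The median of the 8 was −0.24. Without KO chow 1, the library highest in Hadha, Hadhb, Echs1 and Decr1 in its group, 2 members were called, Echs1 (−0.33, adjusted p = 0.039) and Decr1 (−0.35, adjusted p = 0.034), with 2.88% of all genes. Without KO chow 2, 0 were called, Echs1 was −0.08 and the median −0.18. Without WT chow 1 and KO chow 3, 0 were called as well (smallest adjusted p = 0.89, median −0.24).

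Averaged over both diets, Eci2 was the member called lower in KO, with a log2 fold change of −0.41 (SE 0.07, 95% confidence interval −0.56 to −0.25, adjusted p = 0.019) and 1.49% of all genes called. The other 7 were also negative, from −0.61 for Acaa2 (adjusted p = 0.067) and −0.33 for Hadhb (adjusted p = 0.087) to −0.05 for Eci1 (adjusted p = 0.68). Hadha stood at −0.3 (adjusted p = 0.082), Decr1 at −0.25 (adjusted p = 0.058), and Hadh and Echs1 at −0.22 each. The count of calls was 0 without both WT chow 1 and KO chow 3 (0.0167% of all genes called), and 0 without WT chow 1 (0.0612%), WT chow 3 (0.223%) or KO chow 3 (0.0611%) alone. It was 4 without KO HFD 3 (1.59%), 5 without KO chow 1 (8.15%) or WT HFD 3 (2.32%), 6 with the muscle score (16.0%) and 6 by DESeq2 (5.56%). Eci2 was called in 9 of the 12 fits that left out 1 library. Its relative Eci3 was lower in KO as well, with means of 17.0 against 21.8 CPM on chow and 21.8 against 25.4 CPM on HFD. The part of reads shared with Eci3 in the Eci2 result was not tested.

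**Figure D3:**
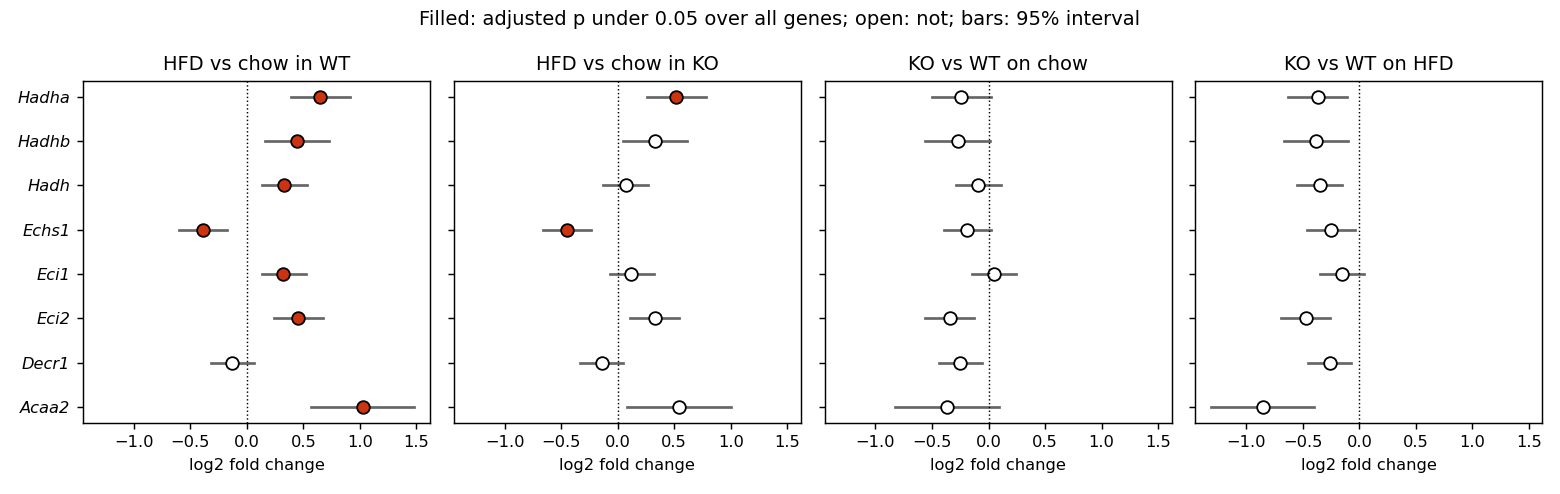
Log2 fold changes of the 8 genes with 95% confidence intervals in the 4 pairwise contrasts (horizontal axis: log2 fold change), with filled points for adjusted p under 0.05. Diet contrasts in WT lie above 0 for 6 genes, and genotype contrasts on HFD lie below 0 for all 8.

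By the order of group means, 6 members were highest in WT HFD, namely Hadha, Hadhb, Hadh, Eci1, Eci2 and Acaa2. For Hadh, Eci2 and Acaa2 the WT HFD libraries did not overlap with the next group, while for Hadha, Hadhb and Eci1 they overlapped with KO HFD. Echs1 and Decr1 were highest in WT chow and lowest in KO HFD, with overlap between WT chow and the next group in both. The spread over libraries was widest for Acaa2, whose highest library was 3.61 times its lowest, followed by Hadha (2.15), Hadhb (2.07) and Eci2 (1.96). Echs1 (1.63), Hadh (1.53), Eci1 (1.37) and Decr1 (1.37) varied less.

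Libraries within the HFD groups also ranked alike. No chow library was the lowest or the highest of its group for more than 4 of 8 members. WT HFD 3 was the lowest of its group for 8 of 8 members and KO HFD 2 the lowest of its group for 6 of 8, while KO HFD 3 was the highest for 5. The mean deviation of the 8 genes on the log2 scale was 0.42, 0.4 and 0.13 in WT HFD and −0.04, −0.25 and 0.07 in KO HFD, against 0, −0.05 and 0.01 in WT chow and −0.17, −0.27 and −0.24 in KO chow. The proximal score was 0.76, 0.593 and 0.044 in WT HFD and 0.0103, 0.871 and 0.415 in KO HFD, so WT HFD 3 was low in both measures and KO HFD 2 was low in one and high in the other.

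**Figure D4:**
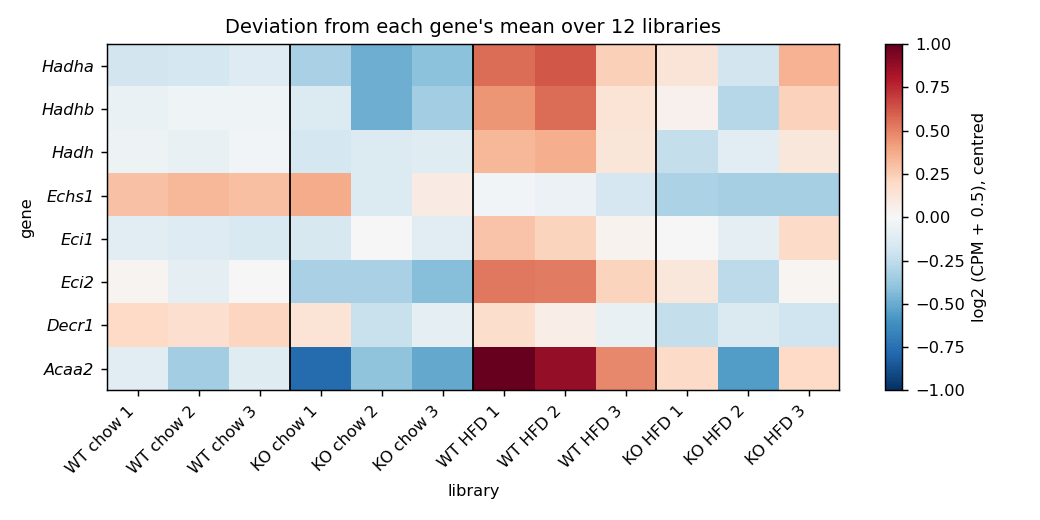
Rows are the 8 genes and columns the 12 libraries, and colour gives log2 (CPM + 0.5) centred on each gene's mean. WT HFD 3 is paler than its partners in most rows, and in WT Echs1 and Decr1 are not higher on HFD, unlike the other 6 genes.

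Across the 12 libraries, the genes whose profile was most like the mean profile of the 8 members included several of the steps before them. That mean describes Echs1 and Decr1 poorly, whose r with the mean of the other members was −0.207 and 0.307, against 0.742 to 0.955 for the other 6. Etfdh (Pearson r 0.973, Spearman rho 0.951) and Etfb (0.958, 0.972) carry electrons from the acyl-CoA dehydrogenases to the respiratory chain, and Acadvl (0.971, 0.944) makes the first dehydrogenation of long chains. Coq4 (0.97, 0.965), a gene of coenzyme Q synthesis, Scarb2 (0.957, 0.811), Hsdl2 (0.948, 0.881), Aco1 (0.948, 0.923) and Itln1 (0.942, 0.804) completed the 8 closest of 8838 genes compared. The libraries fall into 4 groups of diet and genotype, so these values describe a shared group pattern and carry no p.

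A list of 20 other genes of mitochondrial beta-oxidation covered mostly transport, activation, first dehydrogenation and electron transfer, with Acot2, Acat1 and Hsd17b10 beside these. In WT on HFD, 8 of 20 were higher and 0 lower (median 0.3), among them the carnitine transferase Cpt2 (0.65), the carnitine carrier Slc25a20 (0.87), the thioesterase Acot2 (1.47) and Acadvl (0.63). In KO on HFD, 4 were higher and 0 lower (median 0.12), Slc25a20 (0.81), Cpt2 (0.55), Acot2 (1.23) and Cpt1a (0.65), the transferase of the outer membrane. Of all tested genes, 6.8% were called higher and 6.57% lower on HFD in WT, and 3.44% and 4.76% in KO. These shares apply to the lists below too. The interaction of genotype and diet called 0 of the 20. KO against WT on HFD called 2 lower, Acadvl (−0.64, adjusted p = 0.031) and the short-chain dehydrogenase Acads (−0.49, adjusted p = 0.044), with a median of −0.27, and on chow 0 of 20 were called (median −0.16). Acadvl, the enzyme just before the trifunctional protein, measured 187, 175 and 137 CPM in WT HFD against 106, 97.0 and 117 CPM in KO HFD.

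The peroxisome runs a parallel set of steps with its own enzymes. Of 9 peroxisomal counterparts, 4 were higher and 0 lower on HFD in WT (median 0.22) and 4 higher and 0 lower in KO (median 0.28). The thiolase Acaa1b measured 0.867, 0.724 and 1.17 CPM in WT chow and 17.4, 13.1 and 7.85 CPM in WT HFD, a log2 fold change of 3.77, against 1.03 for its mitochondrial counterpart Acaa2. In KO, Acaa1b was at 0.56, 1.05 and 0.755 CPM on chow and at 2.53, 1.38 and 3.73 CPM on HFD, and was called higher on HFD as well. It was the member of that list called lower in KO than in WT on HFD (−2.34). The interaction of genotype and diet called 0 of the 9 genes. The bifunctional enzyme Hsd17b4, which joins hydratase and dehydrogenase as Hadha does, rose in WT (1.66) and in KO (1.15), and so did the thiolase Scp2 (0.8 and 0.47). Ehhadh, the other peroxisomal bifunctional enzyme, was not called in either genotype (0.18 and −0.05).

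No gene of the lists for the use of the products or for related routes was called higher on HFD. Of 16 genes of the citric acid cycle, which takes up acetyl-CoA, 0 were higher and 2 lower in WT on HFD (median −0.13), and 0 higher and 1 lower in KO (median −0.14). Of 13 genes of branched-chain amino acid and short-chain acyl-CoA breakdown, 0 were higher and 3 lower in WT (median −0.17), among them Ivd (−0.48) and Bckdha (−0.4), and 0 higher and 4 lower in KO (median −0.31). Echs1 also acts in the breakdown of valine. By contrast, 9 of 9 tested genes of a list of 12 PPARA targets were higher in WT on HFD (median 1.75, 6.8% of all genes higher). In KO it was 3 of 9 (median 0.82, 3.44% of all genes higher), and the interaction called 0 of 9. The untested Cyp4a10, Cyp4a14 and Cyp4a31 were at 0 in all libraries, except Cyp4a10 in WT HFD (at most 0.944 CPM). Pdk4, at 0.0267 to 0.369 CPM in the chow libraries, passed the expression filter only through its HFD libraries. The number tested thus depended on the filter.

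**Figure D5:**
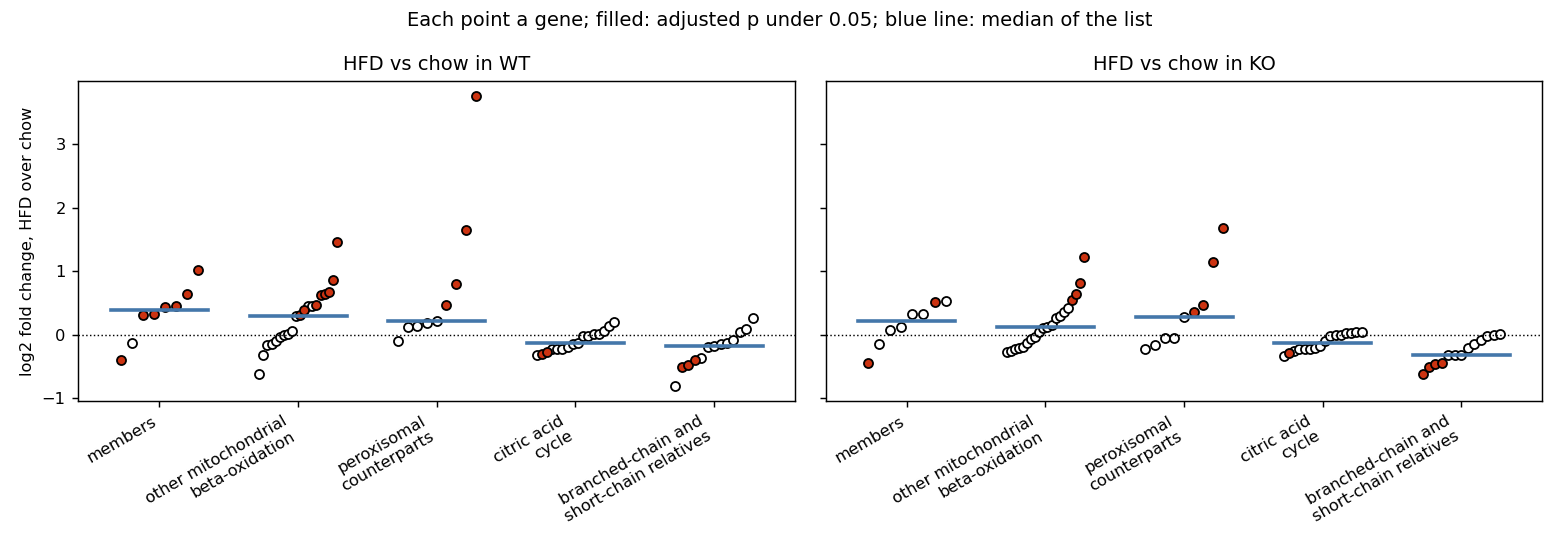
Each point is a gene, with its log2 fold change HFD over chow on the vertical axis and its list on the horizontal axis, in WT (left) and KO (right). Filled points have adjusted p under 0.05 and the blue line is the median, 0.39 and 0.22 for the 8 genes.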

How the data were processed

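Values deposited by the authors are expected counts, estimates that need not be whole, unscaled between libraries. Total RNA was column-purified and made into stranded libraries, per the labels' protocols. The submitters' processing notes name Trimmomatic, STAR, Picard, RSEM and mm10. Versions, annotation release and strand setting are not stated there or elsewhere in the labels, so antisense genes may share reads.

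Expected counts were rounded and fitted with edgeR 4.0.16 in R 4.3.3 (quasi-likelihood F test, robust, TMM, filterByExpr), all 12 libraries in a single fit of 4 group means, with 6 contrasts and Benjamini-Hochberg adjustment over 17602 genes, threshold 0.05. Of the gene IDs, 47224 of 47643 matched GENCODE vM21 when the ID version was ignored, and 39106 with it. Totals of 33621040 to 53959405 counts set the precision. DESeq2 1.42.0 was an alternative. Others were its size factors, only the compared groups, no filter, at least 50 counts in at least 3 libraries, a replicate block, each library left out, both in-between chow libraries left out, and proximal or muscle scores (mean centred log2 of CPM plus 0.5) as covariates. Tests were tested on simulated data. Python 3.11.15, pandas 2.3.3 and matplotlib 3.10.9 served for tables and plots.

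The 8 genes were named in every contrast, with Ppara, up to 4 genes of smallest p from the mitochondrial and peroxisomal lists and up to 2 from other lists. Ehhadh, Acaa1a, Pdk4, Cyp4a10, Cyp4a14 and Cyp4a31 were added after their values were seen, as were the values of Acadvl and Acaa1b by library. For likeness, the 8 genes with the highest r among those with a mean log2 CPM of at least 3 were named. Members and lists were chosen with earlier results of these data known.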

Additional observations from a re-analysis of the deposited data

How the results depend on the processing

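The count of the 8 genes called moved with several settings, and brackets give the share of all genes called. With KO against WT on chow it was 0 (0.125%), and 0 to 2 when 1 library was left out (0.00555% to 2.88%). With KO against WT on HFD it was 0 (0.29%), but 3 with the DESeq2 Wald test (1.64%) and 1 without the filter (0.325%). It was 2 once the muscle score was added (9.28%) and 0 to 1 when 1 library was left out (0.0277% to 0.961%). For HFD against chow in WT it was 7 (13.4%), but 0 without both in-between chow libraries (2.55%) and 0 with the proximal score (0.403%). It was 3 with the muscle score (5.08%) and 2 to 7 when 1 library was left out (4.98% to 17.2%). For HFD against chow in KO it was 2 (8.2%), but 4 with the DESeq2 Wald test (12.2%). It was 0 with only the compared groups (1.99%), 0 without both in-between chow libraries (1.03%) and 0 with the proximal score (2.99%). When 1 library was left out it was 1 to 4 (2.5% to 14.2%). Averaged over diets the genotype count was 1 (1.49%), but 6 with the DESeq2 Wald test (5.56%). It was 3 without the filter (1.29%), 2 with the replicate block (2.15%) and 0 without both in-between chow libraries (0.0167%). With the muscle score it was 6 (16.0%), and it was 0 to 5 when 1 library was left out (0.0611% to 8.15%). The cause of these moves was not tested, beyond fewer libraries or fewer genes in the fit. Replicate numbers did not pair the libraries: same-number pairs had correlations of deviations from −0.111 to 0.143, and the block gave 6 calls for HFD against chow in WT (13.9%). Signs turned only for small values that were not called: Eci1 for KO against WT on chow was −0.0043 without KO chow 2 (−0.0043 to 0.09 over single libraries left out) and −0.01 with the proximal score, Decr1 for HFD against chow in WT was 0.0031 with the muscle score, and Hadh for HFD against chow in KO was −0.05 without KO HFD 3 (−0.05 to 0.15). For the interaction, leaving out KO HFD 2 gave 0.00053 for Hadha (−0.28 to 0.00053) and 0.02 for Hadhb (−0.25 to 0.02), leaving out KO chow 1 gave 0.07 for Echs1 (−0.17 to 0.07), and Decr1 (−0.08 to 0.08) was 5.5e-05 with the block and 0.01, 0.08, 0.07, 0.00088 and 0.01 without WT chow 2, KO chow 1, WT HFD 1, WT HFD 2 and KO HFD 1. The Hadha to Hadhb ratio difference stayed between 0.17 and 0.21 when 1 library was left out (exact permutation p 0.005 to 0.01).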
